A study of Mus musculus with 16 samples.

Results

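Genes that mark border macrophages or monocytes, 9 in all, were followed across 4 genotypes of mouse hippocampus: Mrc1, Lyve1, Cd163, F13a1, Pf4, Cbr2 and Folr2 for macrophages of the brain's borders, and Ccr2 and Ly6c2 for monocytes. They were taken by symbol from the deposited table of estimated counts, in which all 9 of the 9 names were found among 55487 genes. All 9 passed the filter on low counts, which kept 18565 genes. The 16 libraries, 4 per genotype, were made from the right hippocampus. The mice were female, perfused with PBS, and aged 40 weeks by the sample labels and 9.5 months by the treatment protocol. WT mice carried neither alteration. CKO mice were knockouts for Ch25h, the enzyme that makes 25-hydroxycholesterol. T mice carried the PS19 transgene, human MAPT of the 1N4R isoform with the P301S mutation under the PrP promoter, and TCKO mice carried the transgene and the knockout. The samples are whole-tissue RNA, so fewer cells of a type and less RNA per cell cannot be told apart. The labels number the libraries without saying that each is a separate mouse, and p-values therefore measure the spread between these libraries.

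Border macrophages live in the meninges, around vessels and in the choroid plexus, outside the tissue that microglia occupy, and are known for scavenger and endocytic receptors. Classical monocytes circulate in blood, carry the Ly6C surface antigen, and leave the bone marrow and enter tissue through the chemokine receptor Ccr2. Perfusion before dissection washes blood out of the vessels, to an extent that can vary between animals, and how much meninges or choroid plexus comes along with a dissected hippocampus can vary.

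Library totals lay between 15064309 and 34348284 reads. Levels are given as CPM, reads scaled to a common library total, and 3 reads corresponded to 0.087 to 0.199 CPM. Ch25h had 18 to 40 reads in WT, 133 to 300 in T, 0 to 2 in CKO and 0 or 1 in TCKO libraries. Neuronal markers of the hippocampus were present in every library, among them Prox1 of granule neurons at 24 to 87.1 CPM. The summed level of 11 choroid plexus genes was 7440 CPM in WT 1 and 7810 CPM in T 4, against 24.5 to 447 CPM in the other 14 libraries. The summed level of 5 erythrocyte genes, a sign of remaining blood, was 44.5 to 253 CPM in WT, 69.3 to 243 in CKO, 6.15 to 164 in T and 4.4 to 360 in TCKO, and its part in the monocyte and platelet genes was not tested. WT 1 and T 4 stand apart in tissue that also holds border macrophages, so results that rest on them are given with and without them.

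The monocyte gene Ly6c2 has a close copy, Ly6c1, which is expressed in brain endothelium, so the sequences that separate their reads are shown first. The coding sequences of Ly6c2 (chr15:75108546-75111667, minus strand, GRCm38) and Ly6c1 (chr15:75045405-75048511, minus strand), read from the GENCODE M21 transcripts, are 393 bases each and 97.7% identical. The 9 bases that differ are in capitals, and the stretches on either side, which reach into the ends of the longest identical run, are printed.
Ly6c2 coding bases 1 to 84: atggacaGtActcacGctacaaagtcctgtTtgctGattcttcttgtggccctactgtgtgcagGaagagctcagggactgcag
Ly6c1 coding bases 1 to 84: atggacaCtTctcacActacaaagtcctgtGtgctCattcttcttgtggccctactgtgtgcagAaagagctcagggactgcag
Ly6c2 coding bases 234 to 393: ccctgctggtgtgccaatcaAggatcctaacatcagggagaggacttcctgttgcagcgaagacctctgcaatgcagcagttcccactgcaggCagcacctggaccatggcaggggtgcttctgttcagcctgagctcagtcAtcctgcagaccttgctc
Ly6c1 coding bases 234 to 393: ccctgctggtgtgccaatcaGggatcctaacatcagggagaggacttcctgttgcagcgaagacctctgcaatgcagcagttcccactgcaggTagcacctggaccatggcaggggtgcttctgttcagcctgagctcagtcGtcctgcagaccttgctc
The first stretch holds 6 of the differences and the last holds 3. The longest run in common is 188 bases, and a read that falls inside it could have come from either gene. Over the whole transcripts, 21.4% of the 31-base words of Ly6c2 also occur in Ly6c1. Folr2 shares 56.9% of its words with its antisense neighbour Gm10602, and the sources used here do not say whether the counting used strand, so reads of the pair cannot be told apart with certainty. Cbr2 shares 15% with the pseudogene Gm11771. Mrc1, Lyve1 and Pf4 share no such word with another gene.

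Against WT, the tau transgene went with higher levels of the monocyte genes Ccr2 and Ly6c2, while none of the 7 border macrophage genes passed the test. That made 2 of the 9 called higher and 0 lower, where 13% of all genes tested were called higher and 11.2% lower. When Ch25h was also missing, 5 of the 9 genes fell relative to T: the scavenger receptor gene Cd163, the chemokine gene Pf4, the folate receptor gene Folr2, and Ccr2 and Ly6c2. Of all genes tested, 8.05% were called lower and 4.81% higher in that comparison. Loss of Ch25h without the transgene moved none of the 9 past the test, where 0.0108% of all genes were called. The direct test of whether the transgene's effect differed with Ch25h present or absent called 0 members and 3.15% of all genes. Without T 4, Cd163 alone stayed called in TCKO against T. In the plot of the members' levels by library, T holds the highest mean for 8 of the 9 genes, and Lyve1 is the exception, with its highest mean in WT. Without T 4, T holds the highest mean for 4 of the 9 (Mrc1, Folr2, Ccr2 and Ly6c2) and WT for 5.

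**Figure D1:**
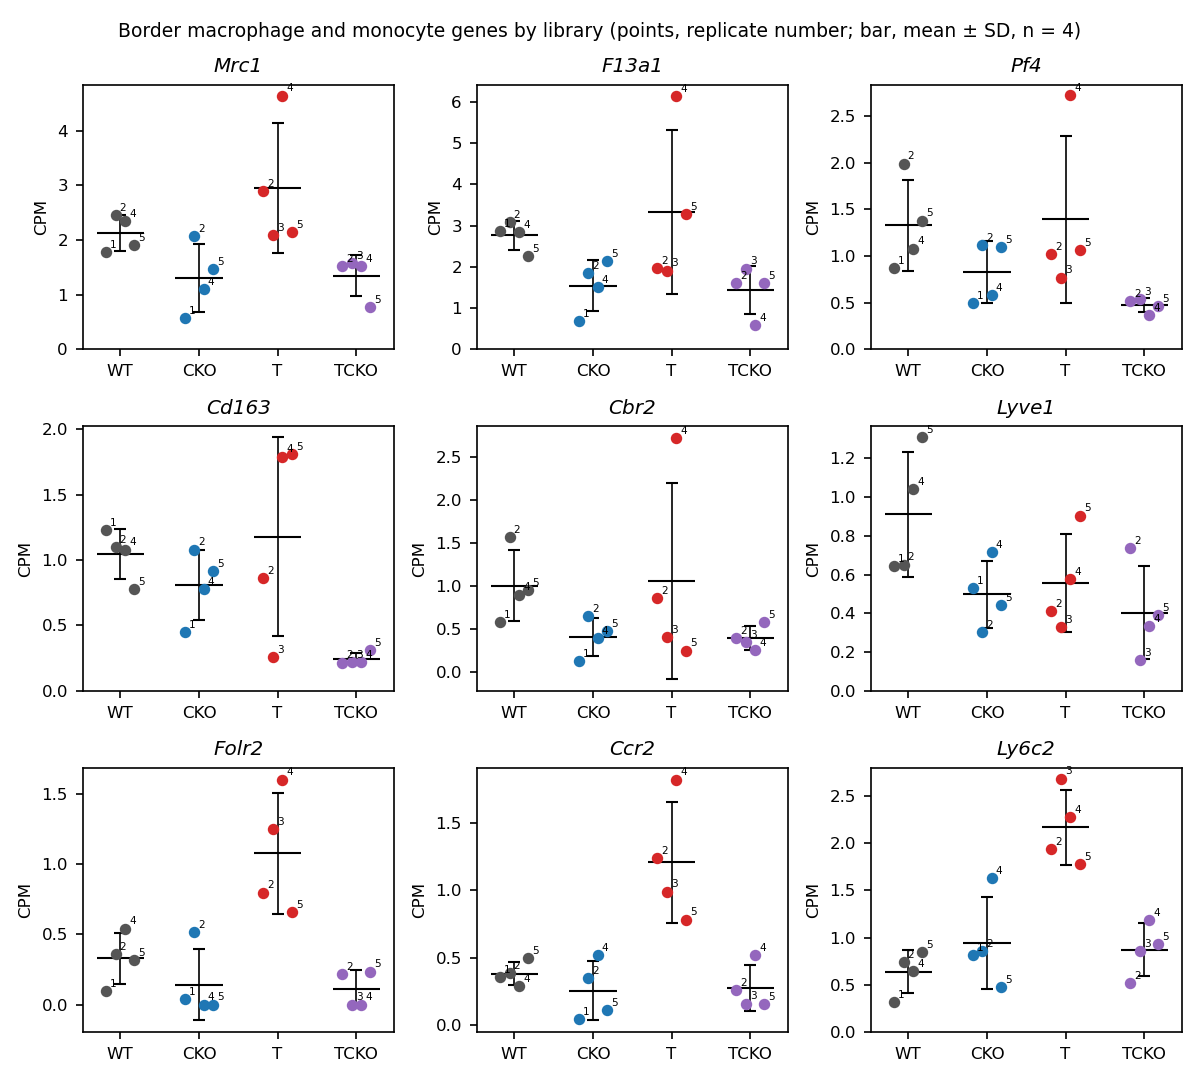
CPM of the 9 genes (y axis of each panel) in the 4 genotypes (x axis), with a point per library and a bar at the mean. T libraries lie above all WT libraries for Folr2, Ccr2 and Ly6c2, and T 4 is the highest T library for 5 of the 7 border macrophage genes.

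Per unit of transcript length the genes differ widely in level. On the deposited TPM scale, Pf4 was highest in WT with 4.67 ± 0.822 TPM (SD, n = 4), followed by Cbr2 at 1.34 and Ly6c2 at 1.28 TPM, and Ccr2 was lowest at 0.149 TPM. In WT, the Pf4 level was above and the Ccr2 level below those of their neighbours in this order without overlap, while the other neighbours overlapped. In T, the mean levels of Pf4 (4.69 TPM) and Ly6c2 (4.44 TPM) lay side by side with overlapping libraries. In TCKO Ly6c2 had the highest mean, 1.92 TPM, and Cd163 the lowest, 0.0945 TPM. Their libraries overlapped those of their neighbours in this order, Pf4 for Ly6c2 and Ccr2 for Cd163. All values below are CPM within a gene unless TPM is named.

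Mrc1 (ENSMUSG00000026712, chr2:14229392-14332057) encodes the mannose receptor, an endocytic lectin used as the standard marker of border macrophages. Its CPM was 1.78, 2.46, 2.34 and 1.91 in WT 1, 2, 4 and 5, and 0.574, 2.07, 1.11 and 1.47 in CKO 1, 2, 4 and 5. It was 2.90, 2.09, 4.64 and 2.15 in T 2, 3, 4 and 5, and 1.52, 1.58, 1.52 and 0.78 in TCKO 2, 3, 4 and 5. All TCKO libraries were below all T and all WT libraries, whereas T and WT overlapped. The log2 fold change was 0.47 ± 0.35 (SE; edgeR adjusted p = 0.364) in T against WT and −1.12 ± 0.36 (adjusted p = 0.0502) in TCKO against T, so Mrc1 did not pass in either comparison. In TCKO against T it passed in 11 of 27 alternative analyses, among them DESeq2 (adjusted p = 0.0175), limma voom (0.0479) and the fits without CKO 1 (0.0323), CKO 2 (0.0423), T 3 (0.0489) or T 5 (0.0347). On the TPM scale, in which each library has its own effective length for the gene (2642 to 5375 bases for Mrc1), T lay at 0.719 to 1.61 and WT at 0.439 to 0.595 without overlap. With that length as an offset in the fit, the log2 fold change of Mrc1 in T against WT was 1.15 (edgeR adjusted p = 0.057), and that in TCKO against T was −1.36 (adjusted p = 0.0477).

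Cd163 (ENSMUSG00000008845, chr6:124304656-124330527) encodes the receptor that takes up hemoglobin bound to haptoglobin. Its CPM was 1.23, 1.10, 1.08 and 0.777 in WT, and 0.451, 1.08, 0.781 and 0.918 in CKO, in the order of libraries given for Mrc1. It was 0.86, 0.257, 1.79 and 1.81 in T and 0.217, 0.222, 0.222 and 0.312 in TCKO. TCKO was low in 4 of 4 libraries and below every WT and CKO library, and it overlapped T only through T 3. Cd163 fell in TCKO relative to T, with a log2 fold change of −2.26 ± 0.5 (edgeR adjusted p = 0.007), and T against WT gave 0.18 ± 0.45 (adjusted p = 0.824). The fall remained in 25 of 26 alternative analyses and was missed by limma voom (adjusted p = 0.0595).

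Lyve1 (ENSMUSG00000030787, chr7:110850607-110863239) encodes a hyaluronan receptor found on a subset of border macrophages and on lymphatic endothelium. It read 0.646, 0.652, 1.04 and 1.31 CPM in WT, 0.533, 0.302, 0.716 and 0.441 in CKO, 0.414, 0.33, 0.576 and 0.905 in T, and 0.737, 0.158, 0.334 and 0.39 in TCKO. All neighbouring groups overlapped. The log2 fold change was −0.7 ± 0.45 in T against WT (edgeR adjusted p = 0.292) and −0.48 ± 0.47 in TCKO against T (adjusted p = 0.551), the smallest change among the 9 in the latter comparison.

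Folr2 (ENSMUSG00000032725, chr7:101839988-101857194) encodes a folate receptor that marks tissue-resident macrophages. Its CPM was 0.0968, 0.356, 0.54 and 0.318 in WT, 0.041, 0.517, 0 and 0 in CKO, 0.796, 1.25, 1.60 and 0.656 in T, and 0.217, 0, 0 and 0.234 in TCKO. Every T library was above every library of the other 3 genotypes, and the libraries at 0 allow up to 3 reads each. The log2 fold change in T against WT was 1.7 ± 0.88 (edgeR adjusted p = 0.177) and did not pass, and Folr2 fell by 3.27 ± 1 on the log2 scale in TCKO relative to T (adjusted p = 0.0407). The call was lost without WT 2 (adjusted p = 0.0531), CKO 1 (0.051), T 2 (0.0747), T 3 (0.0786), T 4 (0.0943), TCKO 2 (0.0605), TCKO 3 (0.0805), TCKO 4 (0.0838) or TCKO 5 (0.0582), and with the effective length as an offset (0.084). In T against WT, limma voom (0.0445) and a fit of the 8 libraries alone (0.0371) called Folr2. Antisense Gm10602 gave a log2 fold change of 0.15 ± 0.34 in T against WT (adjusted p = 0.802) and −0.52 ± 0.34 in TCKO against T (adjusted p = 0.343). Folr2 took 54.1% ± 17.6 (SD, n = 4) of the reads of the pair in T, 27.9% ± 13 in WT, 12.5% ± 18.5 in CKO and 11.7% ± 13.5 in TCKO. By exact two-sided permutation this share differed between TCKO and T with p = 0.029, the smallest that 4 against 4 libraries can give, and between T and WT with p = 0.0571, which became 0.0763 and 0.114 after Benjamini-Hochberg adjustment over 8 such tests.

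F13a1 (ENSMUSG00000039109, chr13:36867178-37050244) encodes the A subunit of coagulation factor XIII, which macrophages make. It read 2.87, 3.08, 2.84 and 2.26 CPM in WT, 0.696, 1.85, 1.5 and 2.13 in CKO, 1.97, 1.91, 6.14 and 3.28 in T, and 1.60, 1.96, 0.593 and 1.60 in TCKO. The WT libraries were above all CKO and all TCKO libraries, and T, from 1.91 in T 3 to 6.14 in T 4, overlapped every group. The log2 fold change was 0.27 ± 0.41 in T against WT (edgeR adjusted p = 0.692), −1.2 ± 0.42 in TCKO against T (adjusted p = 0.0681, and 0.03 by DESeq2) and −0.84 ± 0.42 in CKO against WT (adjusted p = 0.471).

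Pf4 (ENSMUSG00000029373, chr5:90772435-90773383) encodes platelet factor 4, a chemokine stored in platelets and also made by border macrophages. Its CPM was 0.872, 1.99, 1.08 and 1.38 in WT, 0.492, 1.12, 0.586 and 1.10 in CKO, 1.02, 0.77, 2.72 and 1.06 in T, and 0.52, 0.539, 0.371 and 0.468 in TCKO. All TCKO libraries were below all T and all WT libraries. Pf4 fell in TCKO relative to T with a log2 fold change of −1.55 ± 0.43 (edgeR adjusted p = 0.027), and T against WT gave 0.07 ± 0.41 (adjusted p = 0.933). The fall was no longer called without T 4 (adjusted p = 0.123), TCKO 2 (0.056), TCKO 4 (0.0585) or TCKO 5 (0.0699), nor by limma voom (0.0664), in the 8 libraries alone (0.0652) or thinned to equal depth (0.102). Of 8 platelet genes 2 could be tested. Ppbp, which lies beside Pf4 and is a gene of platelets, was at 0 to 0.252 CPM, and Gp9, a platelet glycoprotein gene, fell in T against WT (−1.78 ± 0.4, edgeR adjusted p = 0.00399) and rose in TCKO against T (1.26 ± 0.4, adjusted p = 0.0484). Itga2b, an integrin gene of platelets, gave 0.31 ± 0.33 (adjusted p = 0.548) and −0.4 ± 0.34 (adjusted p = 0.471) in these comparisons. The platelet genes too low to test went the other way from Gp9. At few reads, all had higher means in T than in WT and lower means in TCKO than in T. The summed CPM of the 8 genes was 2.02 to 3.64 in WT, 2.80 to 4.61 in T and 2.15 to 3.20 in TCKO.

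Cbr2 (ENSMUSG00000025150, chr11:120729489-120732114) encodes a carbonyl reductase. It read 0.581, 1.57, 0.90 and 0.953 CPM in WT, 0.123, 0.647, 0.39 and 0.478 in CKO, 0.86, 0.403, 2.72 and 0.25 in T, and 0.39, 0.349, 0.259 and 0.585 in TCKO. T held the highest library of the study for this gene, T 4, and also libraries below every WT value, T 3 and T 5. No comparison of Cbr2 passed, with log2 fold changes of 0.08 ± 0.61 in T against WT (edgeR adjusted p = 0.948), −1.28 ± 0.65 in CKO against WT (adjusted p = 0.475) and −1.41 ± 0.64 in TCKO against T (adjusted p = 0.161). Without T 4 the last was −0.35.

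Ccr2 (ENSMUSG00000049103, chr9:124101950-124113557) encodes the receptor for Ccl2 and related chemokines. Its CPM was 0.355, 0.386, 0.288 and 0.494 in WT, 0.041, 0.345, 0.521 and 0.11 in CKO, 1.24, 0.989, 1.82 and 0.781 in T, and 0.26, 0.158, 0.519 and 0.156 in TCKO. Each T library was above all libraries of the other genotypes. Ccr2 rose in T relative to WT with a log2 fold change of 1.66 ± 0.54 (edgeR adjusted p = 0.0332) and fell in TCKO relative to T by 2.13 ± 0.56 on the log2 scale (adjusted p = 0.0189). The rise was not called without WT 1 (adjusted p = 0.0748), WT 2 (0.069), WT 4 (0.0815), WT 5 (0.0541), T 2 (0.0742) or T 4 (0.103), nor with the replicate number as a block, where the log2 fold change was 1.39 (adjusted p = 0.105), with no filter (0.0535) or thinned to equal depth (0.095). The fall was not called without T 4 (0.0623), TCKO 2 (0.0515) or TCKO 5 (0.0679).

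Ly6c2 (ENSMUSG00000022584, chr15:75108158-75111970) encodes the Ly6C surface antigen of classical monocytes. It read 0.323, 0.741, 0.648 and 0.847 CPM in WT, 0.819, 0.862, 1.63 and 0.478 in CKO, 1.94, 2.68, 2.27 and 1.78 in T, and 0.52, 0.855, 1.19 and 0.936 in TCKO. T was again above all libraries of the other genotypes. Ly6c2 rose in T relative to WT with a log2 fold change of 1.75 ± 0.38 (edgeR adjusted p = 0.00342), a call kept in 27 of 27 alternative analyses, and fell in TCKO relative to T by 1.3 ± 0.38 on the log2 scale (adjusted p = 0.0312). The fall was not called without T 2 (adjusted p = 0.0629), T 3 (0.0779), T 4 (0.0656), TCKO 2 (0.0924), TCKO 3 (0.0544) or TCKO 5 (0.0704), nor with no filter (0.0507) or thinned to equal depth (0.0879). Ly6c1, shown above, held 746 to 2229 estimated reads per library against 9.69 to 73.3 for Ly6c2, and its log2 fold change was 0.1 ± 0.12 in T against WT (adjusted p = 0.57) and −0.53 ± 0.12 in TCKO against T (adjusted p = 0.00716). Ly6c2 took 3.25% ± 0.675 (SD, n = 4) of the reads of both genes in T, 1.05% ± 0.356 in WT, 1.78% ± 1.04 in CKO and 1.89% ± 0.35 in TCKO. The exact two-sided permutation test of this share gave p = 0.029 for T against WT and for TCKO against T (adjusted p = 0.0763 over the 8 tests).

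**Figure D2:**
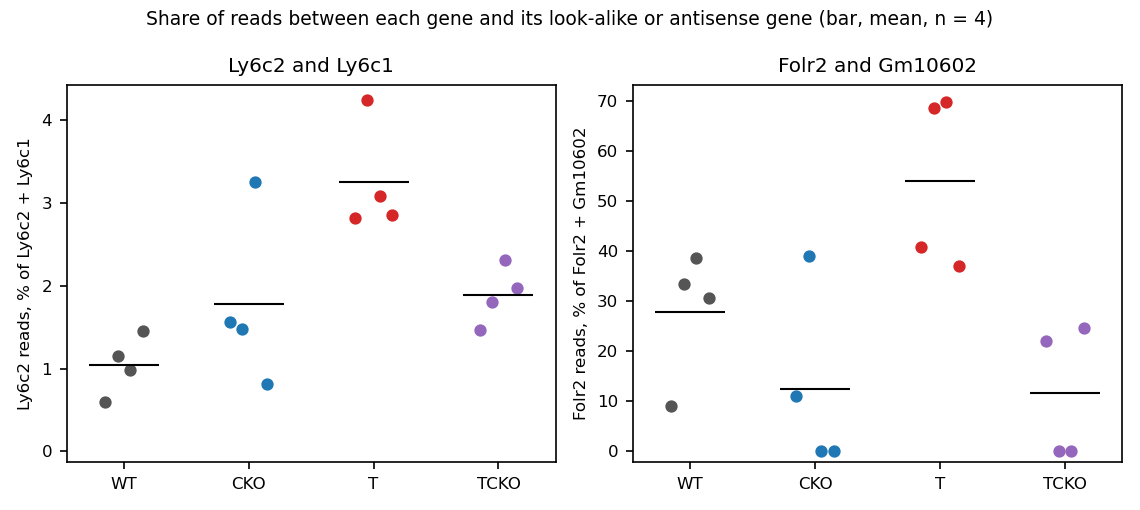
Share in percent (y axis) of the reads of Ly6c2 and Ly6c1 that were assigned to Ly6c2, and of Folr2 and Gm10602 that were assigned to Folr2, by genotype (x axis), with a point per library and a bar at the mean. The Ly6c2 share averaged 3.25% in T and 1.05% in WT, and the Folr2 share 54.1% in T and 11.7% in TCKO.

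In T against WT the members' median log2 fold change was 0.18 over the 7 border macrophage genes and 1.7 over the 2 monocyte genes, against −0.01 over all genes tested. Folr2, Ccr2 and Ly6c2, 3 of the 9, were higher than WT without overlap, where 13.3% of all genes were. In TCKO against T the medians were −1.41 for the border macrophage genes, −1.72 for the monocyte genes and 0.02 for all genes. Mrc1, Pf4, Folr2, Ccr2 and Ly6c2, 5 of the 9, were lower than T without overlap, where 9.65% of all genes were. The plot of the members' fold changes shows the 4 pairwise comparisons of the design side by side. The comparisons share groups, T against WT and TCKO against T having the T libraries in common, so opposite signs in them are not separate observations.

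**Figure D3:**
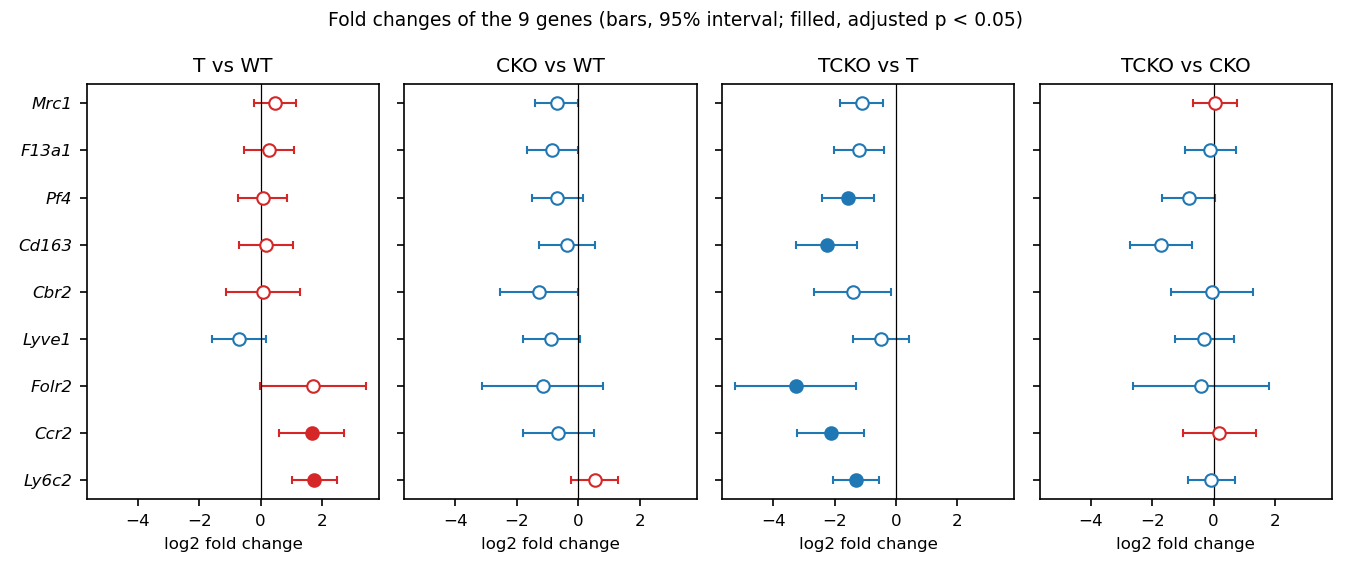
Log2 fold change (x axis) of each of the 9 genes (y axis) in the comparisons of the genotypes, with filled points for adjusted p under 0.05. Bars are 95% intervals by a normal approximation, 1.96 SE to either side, and can be narrower than the F-test implies. In CKO against WT those of F13a1 and Cbr2 end at −0.01, where the edgeR F-test gave unadjusted p of 0.0632 and 0.0651. Ccr2 and Ly6c2 are the filled points of T against WT, at 1.66 and 1.75, and TCKO against T has 5, from −3.27 for Folr2 to −1.3 for Ly6c2.

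Without T 4, Cd163 was the 1 member still called in TCKO against T, and the log2 fold changes of T against WT turned to −0.21 for F13a1, −0.48 for Pf4, −0.98 for Cbr2 and −0.09 for Cd163. Without both choroid-rich libraries, WT 1 and T 4, the members called in T against WT were 1 (Ly6c2, 1.53, adjusted p = 0.0245), and Ccr2 stood at 1.38 (adjusted p = 0.165). In TCKO against T they were then 2, Cd163 at −2.01 (adjusted p = 0.0309) and Ly6c2 at −1.29 (0.0483), with Pf4 at −1 (0.122), Folr2 at −3.02 (0.0893) and Ccr2 at −1.88 (0.0691). WT 1 and T 4 had like levels of choroid plexus genes but not of border macrophage genes. The summed CPM of the 7 border genes was 8.07 in WT 1, where 5 of them had their lowest WT value, and 20.2 in T 4, where 5 had their highest T value. The other sums were 8.90 to 11.2 in WT, 2.91 to 7.59 in CKO, 7 to 10.1 in T and 3.30 to 5.20 in TCKO. Meningeal and fibroblast genes summed to 243 CPM in T 4, 240 in CKO 5, 378 in WT 1 and 384 in WT 5, against 44.6 to 151 CPM in the others, and 3 of 10 fell in TCKO relative to T, among them Col1a1 at −1.37 and Col3a1 at −1.62, and 1 of 10 without T 4. Without T 4, the median of TCKO against T was −0.81 over the border macrophage members and −1.57 over the monocyte members, and that of the choroid plexus genes was 0.91, against −2.2 with it. The part of carried-over border tissue in the members' values was not tested.

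**Figure D4:**
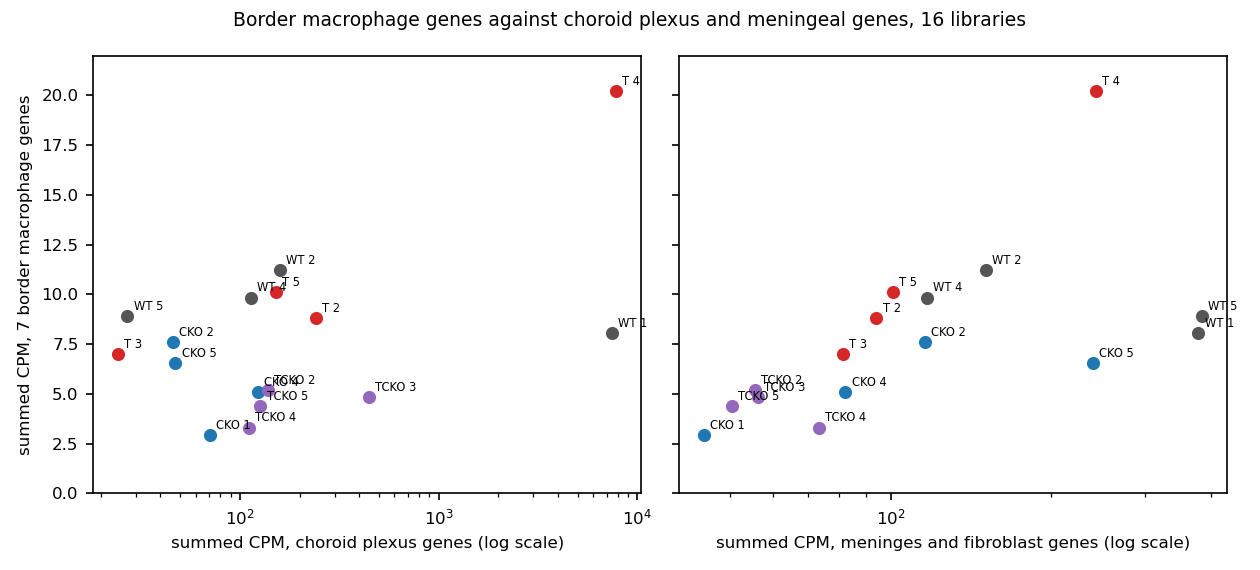
Summed CPM of the 7 border macrophage genes (y axis) against the summed CPM of choroid plexus genes and of meningeal and fibroblast genes (x axes, log scale), with a point per library coloured by genotype. T 4 lies at 20.2 CPM and WT 1 at 8.07 CPM at like choroid plexus levels of 7810 and 7440 CPM.

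Loss of Ch25h without the transgene called none of the 9. In CKO against WT edgeR called 0 members, with 0 at an unadjusted p under 0.05 and 0 called by DESeq2 and by limma voom, where 0.0108% of all genes tested were called. The 7 border genes had negative log2 fold changes that did not pass, from −0.37 ± 0.46 for Cd163 to −1.28 ± 0.65 for Cbr2, with a median of −0.84 against −0.01 over all genes. F13a1 was the 1 member without overlap, where 4.06% of all genes were lower without overlap. Choroid plexus genes had a median of −3.72 and meningeal genes of −0.75, with none called. Without WT 1 these medians were −0.06 and −0.55, and that of the border genes was −0.83. Ccr2 gave −0.66 ± 0.59 and Ly6c2 gave 0.53 ± 0.39.

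Without Ch25h, the transgene called none of the members. In TCKO against CKO edgeR called 0 of the 9 (1 at an unadjusted p under 0.05, 0 by DESeq2 and limma voom), where 0.539% of all genes were called. That 1 was Cd163, lower in 4 of 4 TCKO libraries than in any CKO library, at −1.71 ± 0.51 (edgeR adjusted p = 0.111), where 4.93% of all genes were lower without overlap. The median over the monocyte genes was 0.05 and that over the border genes −0.3. The interaction, which asks whether the transgene's effect differs with Ch25h present or absent, called 0 members by edgeR (2 at an unadjusted p under 0.05) and 3.15% of all genes. Those 2 were Ly6c2 at −1.83 ± 0.54 (adjusted p = 0.0752), which DESeq2 called (0.0246), and Cd163 at −1.89 ± 0.68 (adjusted p = 0.137). Cd163 passed without T 3 (0.0405) and Ly6c2 without CKO 5 (0.0492).

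TCKO against WT was added after the values were seen. It called 0 members by edgeR (4 at an unadjusted p under 0.05) and 0.302% of all genes, and DESeq2 called Cd163 (adjusted p = 0.0138). Cd163 stood at −2.09 ± 0.5 (edgeR adjusted p = 0.0951, and 0.0384 without T 3) and Pf4 at −1.48 ± 0.43 (adjusted p = 0.145). Mrc1, Cd163, F13a1 and Pf4 were lower in all TCKO than in all WT libraries, 4 of the 9, where 4.33% of all genes were lower without overlap. Ccr2 and Ly6c2 overlapped between these groups.

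Further genes listed as markers of these cells were taken from longer lists, and which cells their RNA came from was not tested. Of 16 further border macrophage genes, 14 could be tested, and in T against WT 5 rose and 0 fell, with a median log2 fold change of 0.77. The other 9 did not pass, among them Cd36 at −0.3 and Cd209b at −0.24. Ms4a7, a membrane protein gene of macrophages, rose by 4.05 ± 0.62 (edgeR adjusted p = 0.000183), Hpgd, which inactivates prostaglandins, by 1.72 ± 0.2 (1.11e-05), and the transcription factor Maf by 0.74 ± 0.16 (0.00359). In TCKO against T, 7 of the 14 fell and 0 rose, with a median of −1.78, among them Ms4a7 at −3.95 ± 0.62 (0.000426), Hpgd at −1.21 ± 0.19 (0.000554) and Maf at −0.92 ± 0.16 (0.00126). Without T 4, 4 of the 14 rose and 5 fell in these comparisons, with medians of 0.37 and −0.98. In CKO against WT and in TCKO against CKO none of the 14 was called, and the interaction called Maf at −1.1 and Hpgd at −1.26.

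Of 12 further monocyte genes, 8 could be tested. Of these, Ms4a4c, Itgal and Vcan rose in T against WT and fell in TCKO against T, and the other 5 did not pass in either. The median was 0.63 in T against WT, where Itga4 stood at −0.38 and Ace at −0.16, and −0.48 in TCKO against T, where Hp stood at 1.01. The membrane protein gene Ms4a4c rose by 4.06 ± 0.74 (edgeR adjusted p = 0.000868) and fell by 3.39 ± 0.71 (0.00442), the integrin gene Itgal rose by 3.97 ± 0.73 (0.00099), and Vcan, the proteoglycan versican, rose by 0.63 ± 0.15 (0.00516) and fell by 0.69 ± 0.15 (0.00511). All 4 genes listed as coding for ligands of Ccr2 rose in T against WT. Ccl2 rose by 5.51 ± 0.49, Ccl12 by 4.28 ± 0.54, Ccl8 by 4.66 ± 0.91 and Ccl7 by 2.92 ± 0.61. Whether each product acts on Ccr2 was not tested. In TCKO against T all 4 fell, from −4.02 ± 0.45 for Ccl2 to −5.03 ± 0.94 for Ccl8.

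Markers of other immune cells were set beside the members. All 10 disease-associated microglia genes rose in T against WT (median 3.16) and fell in TCKO against T (median −2.23). Of 10 homeostatic microglia genes 9 rose (median 1.07) and 6 fell (median −0.7). All 7 T cell genes rose in T against WT (median 3.41), and 6 of them fell in TCKO against T. Of 8 neutrophil genes 5 could be tested. S100a9, a calcium-binding protein gene of neutrophils and monocytes, rose in T against WT (3.29 ± 0.88, edgeR adjusted p = 0.0121), where S100a8 stood at 1.83 (adjusted p = 0.0612), and none passed in TCKO against T. Ly6g was at 0 in all 16 libraries, while Mpo averaged 3.62 to 6.02 CPM over the genotypes. Which cells the members' RNA came from was not tested. The plot of fold changes by list sets them side by side.

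**Figure D5:**
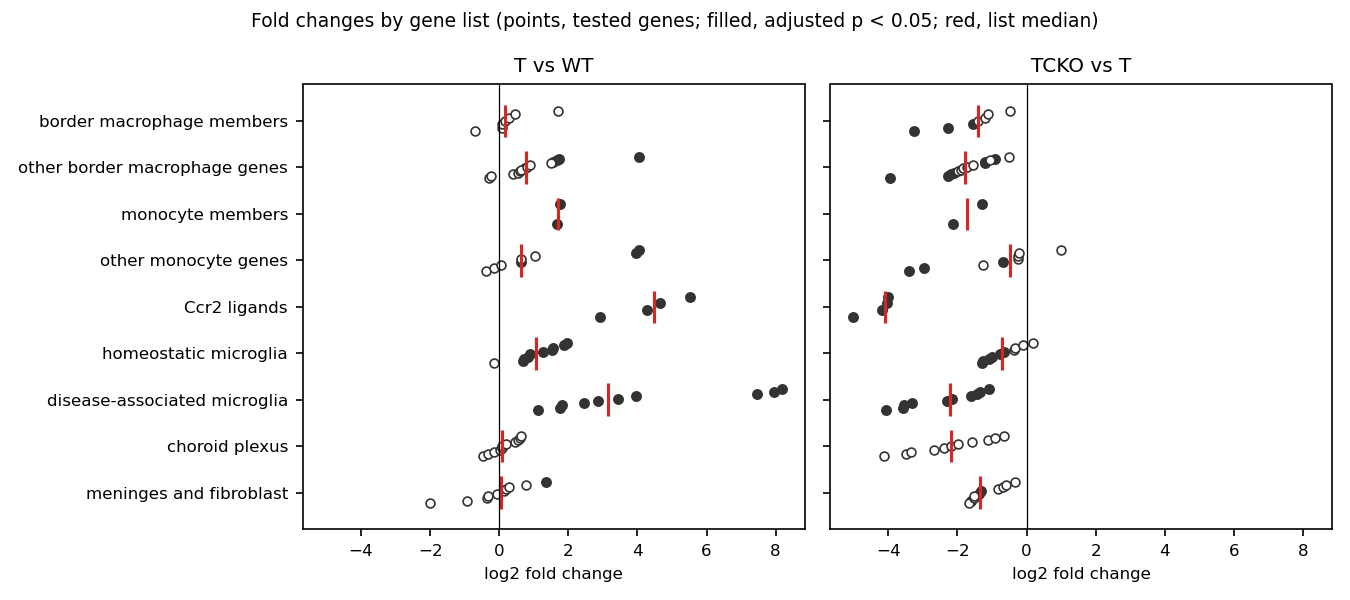
Log2 fold changes (x axis) of the genes of each list (y axis), with a point per gene and a bar at the list's median, in T against WT and in TCKO against T. The border macrophage members centre at 0.18 and the disease-associated microglia genes at 3.16 in T against WT, and at −1.41 and −2.23 in TCKO against T.

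The members were also compared in how they varied from library to library within a genotype. Taking each library's deviation from its genotype mean in log2 CPM over 16 libraries, all 21 pairs of border genes had Pearson r of −0.22 to 0.84, with a median of 0.42. The 10 pairs among Mrc1, Cd163, F13a1, Pf4 and Cbr2 had r of 0.42 to 0.84, with a median of 0.64, and 0.25 to 0.75 without T 4. The 8 pairs with Lyve1 had r of −0.22 to 0.23, and Folr2 had r of 0.08 with Cd163 to 0.46 with Cbr2. These 5 genes were picked after their values were seen, the libraries share depth and dissection, and the values are a description. The gene closest to Mrc1 in this measure was the scavenger receptor gene Colec12 (r = 0.94, Spearman rho = 0.95). Those closest to the others were Ehd3 for Lyve1 (0.91, rho 0.92), Itm2a for Cd163 (0.9, rho 0.79), Zfp623 for F13a1 (0.9, rho 0.71), Abcg2 for Pf4 (0.84, rho 0.74), Fcgrt for Cbr2 (0.9, rho 0.78), Cenpq for Folr2 (0.88, rho 0.89), Slc6a12 for Ccr2 (0.83, rho 0.84) and Ccdc174 for Ly6c2 (0.89, rho 0.75). Without T 4 the closest genes were others for F13a1 (Snx4, 0.89, rho 0.79), Pf4 (Fkbp10, 0.82, rho 0.85) and Ccr2 (Mpo, 0.85, rho 0.82).

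Promoter sequence was read because RNA of Spi1, the gene of the myeloid transcription factor PU.1, moved in the same comparisons. Spi1 rose by 3.77 ± 0.33 in T against WT (edgeR adjusted p = 1.56e-06) and its log2 fold change was −2.04 ± 0.3 in TCKO against T (0.000279). RefSeq windows (GRCm38.p6) from 250 to 26 bases before a gene's start were searched on both strands for the PU.1 core GAGGAAG, for TGCTGAC of MAF factors and for the interferon response motif, GAAA repeated with 2 bases between. The table held 11 windows of 8 members, and none of Lyve1. GAGGAAG was found in 5 of the members' 11 windows, and in 9.26% of 32851 windows of all genes. The 5 belong to 4 of the 8 members, Mrc1, F13a1, Cbr2 and Ly6c2. The Ly6c2 windows overlap and hold the same site, and another window of F13a1 has no match. The Ccr2 window has 208 of its 225 bases in annotated exons. The other motifs, in 3.38% and 2.68% of all windows, were not found in the members' windows. The windows of Mrc1 (chr2:14229164-14229388, plus strand), F13a1 (chr13:37050270-37050494, minus strand) and Ly6c2 (chr15:75111997-75112221, minus strand) are printed with matches in capitals, as the windows with a match that overlap no annotated exon.
Mrc1: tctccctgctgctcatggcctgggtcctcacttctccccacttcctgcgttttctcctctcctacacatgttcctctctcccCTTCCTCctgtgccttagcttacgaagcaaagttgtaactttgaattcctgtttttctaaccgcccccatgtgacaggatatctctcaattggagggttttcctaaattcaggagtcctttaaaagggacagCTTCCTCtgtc
F13a1: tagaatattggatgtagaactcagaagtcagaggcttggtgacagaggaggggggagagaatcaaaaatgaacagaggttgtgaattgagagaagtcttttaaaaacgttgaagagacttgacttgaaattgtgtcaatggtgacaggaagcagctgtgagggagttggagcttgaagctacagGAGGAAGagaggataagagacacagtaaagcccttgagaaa
Ly6c2: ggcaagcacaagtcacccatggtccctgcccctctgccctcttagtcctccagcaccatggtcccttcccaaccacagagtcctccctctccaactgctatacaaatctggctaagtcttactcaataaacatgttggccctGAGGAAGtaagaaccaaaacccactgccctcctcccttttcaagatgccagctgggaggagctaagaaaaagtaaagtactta
Mrc1 holds 2 matches, both on the opposite strand, and F13a1 and Ly6c2 hold 1 each. Pf4, Folr2, Ccr2 and Cd163, all called lower in TCKO against T, have no match in theirs. Of the members with a match, Ly6c2 was called in that comparison, and Mrc1, F13a1 and Cbr2 were not. The part of PU.1 in the members' levels was not tested.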

How the data were processed

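Per the labels' protocols, RNA of 16 hippocampal samples, 4 per genotype, was primed with oligo-dT and amplified by a SMARTer Ultra Low kit. The submitters' processing notes name bcl2fastq, STAR 2.5.1a, Subread, featureCounts 1.4.6-p5 and build GRCm38, without roles. The authors deposited estimated counts (expected counts that need not be whole) per Ensembl gene in a table of the series. Each sample also has a deposited file with the same counts, TPM and an effective length per gene, per the file headers. Its quantifier, annotation and strand setting are not given in the sources used here. After dropping 287 repeats from 55774 lines, 55487 genes were left.

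The labels gave each library's genotype and number. Rounded estimated counts were tested over all 16 libraries with edgeR 4.0.16 in R 4.3.3 (TMM scaling, filterByExpr, a mean per genotype, quasi-likelihood F-tests, Benjamini-Hochberg adjustment over 18565 genes, threshold 0.05). CPM are rounded counts over TMM-scaled totals. DESeq2 1.42.0, limma voom 3.58.1, filters, leaving out libraries, the replicate block, an effective length offset and thinning to equal depth were alternatives, the last 2 and TCKO against WT added after the data were seen. Read shares were compared by exact two-sided permutation in SciPy 1.17.1. The fit was tested on simulated counts. Intervals of fold changes include the spread between libraries, and floors of 3 reads cover counting error only.

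The members and lists were chosen with earlier results of these data known. Genes named beyond the members are up to 3 of a list with the smallest p in a comparison, defining markers at 0, near-identical or neighbouring genes of a member and, per member, the gene with the most alike deviations. Itga4, Ace, Hp, Cd36 and Cd209b were named after their values were seen. Medians of lists without WT 1 or T 4 were added after the data were seen. Over all genes, the deviations of same-numbered WT and T libraries had r of 0.12, 0.14 and 0.3. Those of CKO and T libraries had 0.1, 0.14 and 0.14, and those of WT and CKO libraries −0.05 to 0.27. Differently numbered libraries were not compared, and the labels do not say that the numbers pair libraries. The blocked value is given where it changes a call of T against WT. With depths of 15064309 to 34348284 reads, members lie at 0 to 192 rounded reads per library.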

Additional observations from a re-analysis of the deposited data

Results flagged for a closer look

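In groups of 4 libraries, a library was singled out where its gap to the nearest other library took up more of the group's range than Dixon's 95% limit for 4 values allows. This held in 11 of 116 groups, and chance alone flags about 1 in 20. Among members, Mrc1 was low in TCKO 5 at 0.78 CPM and Cd163 high in TCKO 5 at 0.312 CPM, still below every WT and CKO library. Pf4 was high in T 4 at 2.72 CPM, and Folr2 was high in CKO 2 at 0.517 CPM against 0 to 0.041 in the other CKO libraries. Among summed lists, choroid plexus genes were high in WT 1 (7440 CPM), T 4 (7810 CPM) and TCKO 3 (447 CPM), and meningeal and fibroblast genes in T 4 (243 CPM). The further monocyte genes were high in WT 1 (62.1 CPM in sum), of which Ace alone made 37.2 CPM. Ace was also highest among T libraries in T 4, at 33.1 CPM, and its lowest values were 3.13 CPM in WT and 3.11 in T. The part of choroid plexus tissue in the Ace values was not tested. The homeostatic microglia genes were high in CKO 4 (556 CPM) and the dendritic cell genes in T 2 (8.85 CPM).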

How the results depend on the processing

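Of 1416 alternative values for 54 member results under 27 settings, 1300 kept direction and side of the threshold, 44 lost a call, 20 gained one and 52 changed sign. Of the 54 results, 7 passed in the main fit. All 44 lost calls belonged to these 7, and none of the 52 sign changes did. In T against WT the call was kept in 27 of 27 alternatives for Ly6c2 and 16 of 26 for Ccr2. In TCKO against T it was kept in 25 of 26 for Cd163, 22 of 26 for Ccr2 and 19 of 27 for Ly6c2. It was kept there in 18 of 27 for Pf4 and 14 of 26 for Folr2. The cause of the changes between settings was not tested. Leaving out 1 library gave 2934 to 5128 genes and 1 to 2 members called in T against WT, 0 to 7 genes in CKO against WT, 1294 to 3278 genes and 1 to 6 members in TCKO against T, 11 to 266 genes in TCKO against CKO, 6 to 67 genes and 0 to 1 members in TCKO against WT, and 298 to 1266 genes and 0 to 1 members in the interaction. Genes called in all were 4490, 2, 2388, 100, 56 and 584 in these 6 comparisons. Log2 fold changes of signs that turned ranged, in T against WT, over −0.98 to 0.41 for Cbr2, −0.10 to 0.54 for Cd163, −0.21 to 0.49 for F13a1 and −0.48 to 0.33 for Pf4. In TCKO against CKO they ranged over −0.35 to 0.26 for Cbr2, −0.33 to 0.74 for Ccr2, −0.33 to 0.15 for F13a1, −1.09 to 2.53 for Folr2, −0.30 to 0.30 for Ly6c2 and −0.19 to 0.36 for Mrc1. In the interaction they ranged over −0.46 to 0.93 for Cbr2, −0.62 to 0.11 for F13a1, −2.79 to 0.83 for Folr2 and −0.04 to 0.74 for Lyve1.

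With the replicate number as a block, T against WT called 1 member, with Pf4 at −0.04 and Cbr2 at −0.22. The block called 0 genes in CKO against WT, 5 in TCKO against CKO and 3 in TCKO against WT, with Mrc1 at −0.09 and Cbr2 at 0.01 in TCKO against CKO and Cbr2 at 0.23 in the interaction. Same-numbered T and TCKO libraries had r from −0.14 to 0.17. In TCKO against T the block left 4 members called by edgeR, with Mrc1 gained (adjusted p = 0.0448) and Pf4 (0.0501) and Folr2 (0.0531) lost. DESeq2 called 110 genes in CKO against WT, 765 in TCKO against CKO, 495 and 1 member in TCKO against WT, and 1250 and 1 member in the interaction. Limma voom called 1 gene in CKO against WT, 59 in TCKO against CKO and 25 in TCKO against WT. It put Cd163 at −0.11, Pf4 at −0.04 and Cbr2 at −0.42 in T against WT, Cbr2 at 0.08 and Ly6c2 at 0.07 in TCKO against CKO, and Cbr2 at 0.5 in the interaction. With no filter, T against WT called 1 member, TCKO against CKO 252 genes and TCKO against WT 100 genes, and the stricter filter, which removed Ccr2 and Folr2 among others, left 1 member in T against WT.

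Without WT 1 and T 4, T against WT called 2696 genes and 1 member, CKO against WT 8 genes, TCKO against T 1591 genes and 2 members, TCKO against WT 12 genes and the interaction 378. F13a1 was then at −0.17, Pf4 at −0.62 and Cbr2 at −1.15 in T against WT, and F13a1 at 0.11 and Cbr2 at 1.14 in the interaction. With the 8 libraries compared alone, CKO against WT called 1 gene, TCKO against T 1354 genes and 3 members, TCKO against CKO 301 genes and TCKO against WT 16. Thinned to equal depth, T against WT called 1 member and CKO against WT 1 gene, with Cd163 at −0.03 in T against WT and Lyve1 at 0.17 and Ly6c2 at 0.31 in TCKO against CKO. With the effective length offset Mrc1 was at −0.02 in TCKO against CKO. Members rest on few reads, and differences within this spread were not detectable at this depth.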
